A study of Mus musculus with 5 samples.

Results

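Parvalbumin (Pvalb), calbindin (Calb1), calretinin (Calb2) and the 3 NECAB proteins (Necab1, Necab2 and Necab3) are small neuronal proteins that bind calcium. They were followed across the 14 annotated cell types of the mouse lumbar dorsal root ganglion (DRG), the ganglion that holds the cell bodies of the sensory neurons of the lower body. The genes were taken as a fixed list and matched by symbol, and 6 of 6 were found among the 17267 mouse gene rows of the table. Cells came from untreated wild type C57BL/6 mice, adults of both sexes, and were profiled with the Chromium 3′ assay, which counts the captured transcripts of a cell by their molecular identifiers (UMIs). The 5 mice form 1 group, so the comparisons are between cell types.

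Pvalb, Calb1 and Calb2 belong to the EF-hand family, whose helix-loop-helix motif holds a calcium ion. Pvalb and Calb1 act mainly as buffers that take up calcium after it enters a neuron. In the DRG, Pvalb is best known from proprioceptors, the large neurons that report muscle stretch and tension, and Calb1 and Calb2 from groups of large mechanosensory neurons. The NECAB proteins carry an EF-hand domain at their N-terminus and are less studied; NECAB2 binds the adenosine receptor encoded by Adora2a and the metabotropic glutamate receptor encoded by Grm5, and NECAB3 binds the adaptor protein APBA2.

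The levels below are UMIs of a gene summed over the cells of a type in a library, scaled to the same total for each sum (CPM). A library was taken as 1 mouse, and libraries 1 to 5 held 164, 539, 474, 805 and 1370 cells, 3352 in all, with 13050375 to 88886919 UMIs. The numbers 1 to 5 are names only, since no sample label names a library, and 7 cell barcodes of 3345 occurred in more than 1 library. The types held between 56 cells (endothelial) and 900 cells (NP_Mrgprd), and the rarest neurons, NF2_Ntrk2.Necab2, between 3 and 27 cells per library. The type names are those of the deposited annotation, where NF stands for neurofilament-containing, PEP for peptidergic and NP for non-peptidergic neurons. The markers of the NF class, Nefh, Nefm and Nefl, were highest in NF types, Calca and Tac1 in a PEP type, Mrgprd, Mrgpra3, Nts and Sst in NP types, Th in Th neurons, Apoe and Fabp7 in satellite glia, and Cldn5, Pecam1, Flt1 and Cdh5 in endothelial cells. Exceptions were Gfra2, listed for NP types and highest in Th neurons, and Glul, listed for satellite glia and highest in endothelial cells. Of 5 proprioceptor markers, Pvalb, Runx3, Etv1 and Whrn were highest in NF_Pvalb and Ntrk3 in NF_Calb1. A member is part of 3 type names, so the height of Pvalb, Calb1 and Necab2 in those types is part of how they were named.

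In the annotation of GRCm38 (mm10), the genes lie on 4 chromosomes. Calb1 spans chr4:15881264-15908064 on the plus strand and Necab1 chr4:14952245-15149794 on the minus strand of the same chromosome. Calb2 lies at chr8:110137502-110168210 on the minus strand and Necab2 at chr8:119446719-119472640 on the plus strand. Necab3 lies at chr2:154544399-154558890 and Pvalb at chr15:78191114-78206400, both on the minus strand. Promoter windows of 300 bases were matched for Pvalb, Necab2 and Necab3 (RefSeq, GRCm38.p6). The table lists 2 windows each for Pvalb and Necab3, of which the first was used and the other not analysed. The start site of the Necab3 window lies inside the gene span given above, so the stretch shown overlaps that span. The last 100 bases before the start site are shown for these 3 of the 6 members, the only ones with a window. Motifs that were searched for are in capitals. The CCGCCC of Necab3 is a GC box on the opposite strand.

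Pvalb, chr15:78206401-78206500, minus strand: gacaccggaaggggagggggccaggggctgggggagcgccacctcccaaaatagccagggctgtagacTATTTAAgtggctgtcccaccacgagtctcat
Necab2, chr8:119446619-119446718, plus strand: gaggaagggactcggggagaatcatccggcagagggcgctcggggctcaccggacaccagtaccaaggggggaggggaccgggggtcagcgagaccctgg
Necab3, chr2:154558855-154558954, minus strand: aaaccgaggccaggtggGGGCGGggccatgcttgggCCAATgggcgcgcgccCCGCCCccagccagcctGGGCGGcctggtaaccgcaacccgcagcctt

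A total of 4 motifs were searched on both strands of the 300 bases. The TATA box was written TATAAA and its variant TATTTAA, the GC box GGGCGG, and the remaining motif was CCAAT. In Pvalb the variant began 32 bases before the start site, and 4.51% of all 32851 windows hold it. In Necab3 a CCAAT motif began 64 bases before the start (37.4% of windows), between GC boxes at 83, 48 and 31 bases before it (35.7% of windows). The Necab2 window held a single GC box on the opposite strand, 45 bases after the start and outside the stretch shown. The TATA box was in none of the 3 windows and in 13.6% of all windows. The Pvalb window held 5 CG dinucleotides and those of Necab2 and Necab3 17 each, against a median of 7 over all windows.

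Pvalb was held almost entirely by 1 type. In NF_Pvalb it reached 2504, 2394, 3090, 2795 and 3083 CPM in libraries 1 to 5, and this type held 92.1% of the sum of the 14 type means. NF_Calb1 followed with 236, 70.2, 47.8, 212 and 174 CPM, a mean of 148 ± 84.8 (SD, n = 5). The 2 groups of values did not overlap, and the mean of NF_Pvalb was 18.7 times that of NF_Calb1. In the other 12 types the mean lay between 2.43 CPM in NF2_Ntrk2.Necab2 and 17.5 in satellite glia, and 2 of 13 steps in the order of types exceeded the spread between libraries, those from NF_Pvalb to NF_Calb1 and from NF_Calb1 to satellite glia. A step was taken to exceed the spread where its mean log2 difference was larger than its SD and had the same sign in 5 of 5 libraries. Both did so, at 4.46 ± 1.06 and 3.13 ± 1.92 (SD), and p was 0.0625 for each, the smallest that the exact two-sided sign-flip test allows with 5 libraries.

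**Figure D1:**
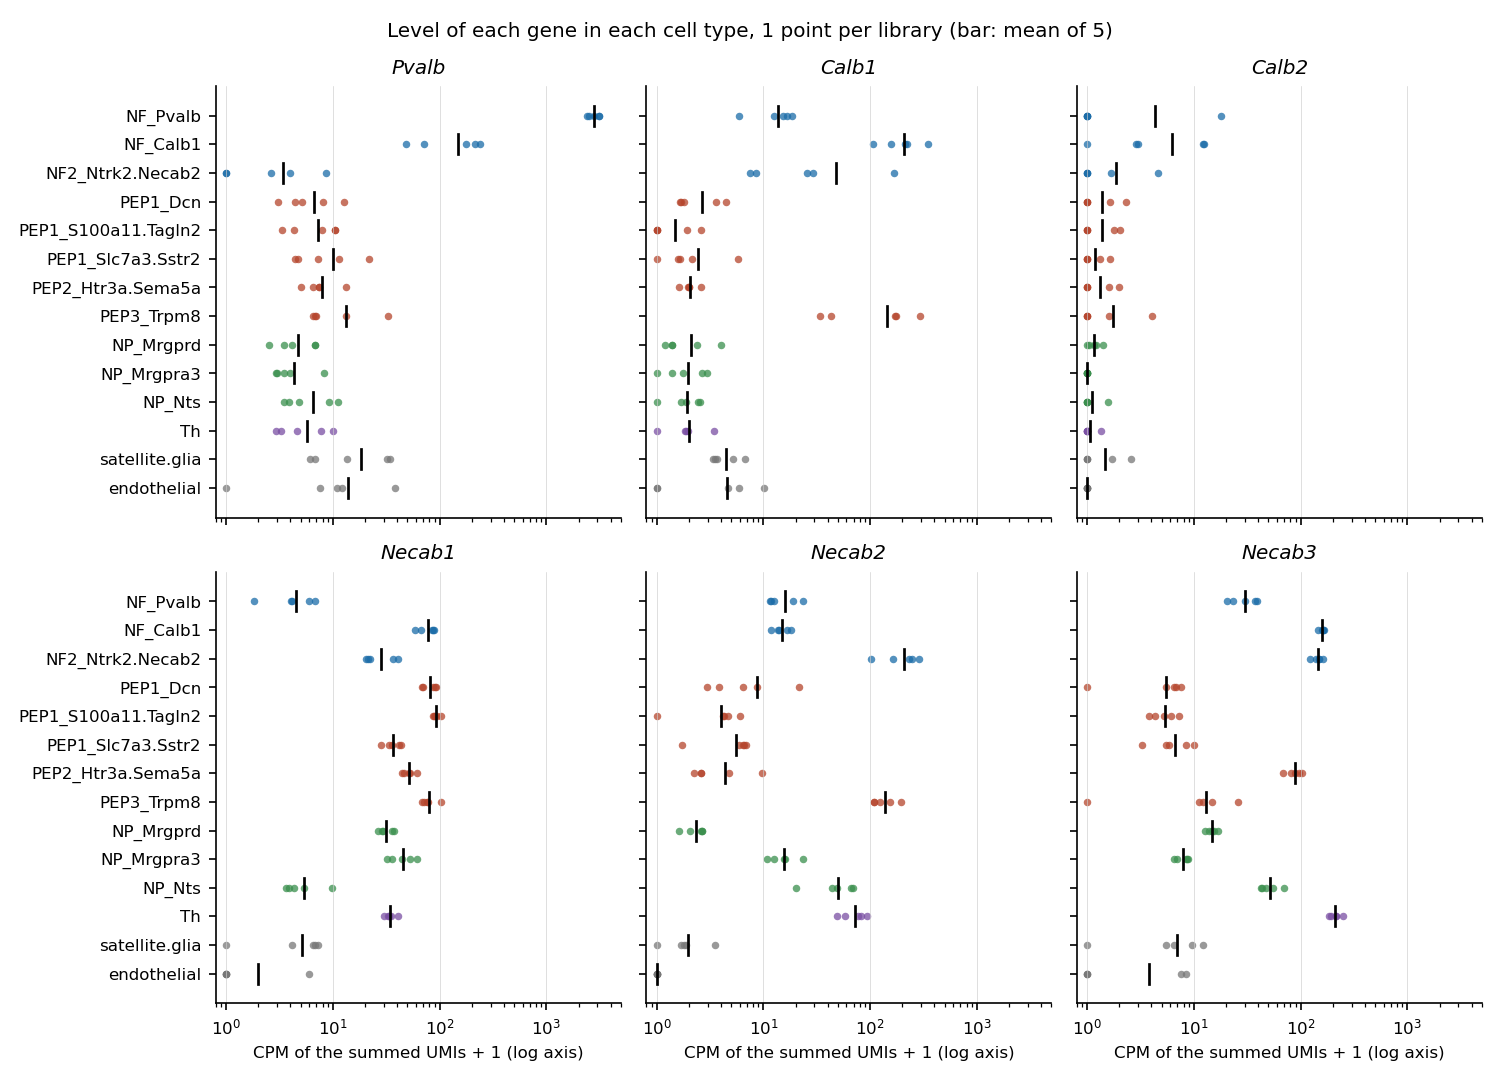
Level of each of the 6 genes (x axis, CPM + 1, log scale) in the 14 cell types (y axis), with 1 point per library and a bar at the mean of 5 libraries; blue marks NF, red PEP, green NP and purple Th neurons, and grey satellite glia and endothelial cells. Pvalb stands at 2394 to 3090 CPM in NF_Pvalb alone, whereas Necab1 lies over 20 CPM in 10 types.

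A few Pvalb UMIs were found in every type. They occurred in 24.1% of satellite glia (exact Clopper-Pearson 95% interval 18.9 to 29.9%, counting error only), which should lack the gene, at a median of 17729 UMIs per cell. The shares of 19.0% to 35.6% in the 10 neuron types other than NF_Pvalb and NF_Calb1 came from deeper cells. After thinning each cell to 10000 UMIs the share was 15.8% in satellite glia and 2.38% to 14.4% in those neurons, so these shares lay at or below that of satellite glia. Of satellite glia, 17 of 249 cells were over 100 CPM of Pvalb, and the highest reached 710 CPM with 13 UMIs. Only 7 satellite glia held at least 3 Pvalb UMIs, so most of these 17 rested on fewer. The top 10% of cells (24 cells) held 65.7% of the 105 UMIs, which came from 60 cells. By library the level ran from 5.04 to 33.3 CPM. NF_Calb1 stood above satellite glia, with 67.8% of cells before thinning and 35.1% after, and so did NF_Pvalb with 100% and 99.9%. In satellite glia the neuron markers Snap25, Tubb3, Uchl1 and Rbfox3 were also found, at 4.55 to 210 CPM against highest neuron levels of 514 to 5020, and their part in the Pvalb level was not tested.

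Within NF_Pvalb the gene was even. Of 113 cells, 108 were over 1000 CPM and the lowest bin with any cell was that from 200 to 500 CPM, with 1 cell. Within NF_Calb1 it was not. There 58 of 180 cells held no Pvalb UMI, 44 were over 100 CPM and the highest reached 2286 CPM. The top 10% of NF_Calb1 cells (18 cells) held 65.9% of the Pvalb UMIs of the type, and the top 10% of NF_Pvalb cells 21.9%. Cells over 100 CPM occurred in each library, from 15.9% in library 3 to 37.5% in library 4. The median depth was 68904 UMIs in the cells at 0 and 69592 in those over 100 CPM. Without the 1 cell that held most Pvalb UMIs the level of NF_Calb1 was 123 CPM, an alternative chosen after seeing the data.

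Calb1 had high levels in types of 2 different classes. In NF_Calb1 it reached 105, 213, 155, 221 and 345 CPM in libraries 1 to 5. In PEP3_Trpm8, the neurons with the cold receptor Trpm8, it reached 42.1, 290, 32.6, 172 and 171 CPM. The values overlapped, and the step from NF_Calb1 to PEP3_Trpm8 was 0.89 ± 1.00 on the log2 scale (SD, n = 5 libraries, 4 in this direction; p = 0.188 in the exact sign-flip test). NF2_Ntrk2.Necab2 followed with 165, 7.58, 6.50, 28.4 and 24.7 CPM. Its mean of 46.4 rested on library 1, where the type had 3 cells and 1 of them held all 46 Calb1 UMIs; without library 1 the mean was 16.8, and without the 1 highest cell 13.4. NF_Pvalb had 12.8 ± 4.92 CPM (SD, n = 5), and the other 10 types lay between 0.502 and 3.58. Only 1 of 13 steps exceeded the spread between libraries, that from NF_Pvalb to endothelial cells.

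Calb1 split the cells of the type that is named after it. In NF_Calb1, 77 of 180 cells held no Calb1 UMI and 80 were over 100 CPM, with 23 between them. The median depth was 75499 UMIs in the cells at 0 and 81138 in those over 100 CPM. By library, the cells over 100 CPM made up 31.2, 44.8, 29.5, 45.8 and 56.7% of NF_Calb1 in libraries 1 to 5, so both kinds of cells occurred in each mouse. In PEP3_Trpm8 the split was more uneven: 105 of 168 cells were at 0, 36 were over 100 CPM and 11 over 1000 CPM, and the top 10% of cells (16 cells) held 71.3% of the Calb1 UMIs. The cells over 100 CPM were the shallower ones there, at a median of 25938 UMIs against 31749 in the cells at 0. They made up 50% of PEP3_Trpm8 in library 2 and 10.7% in library 3.

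**Figure D2:**
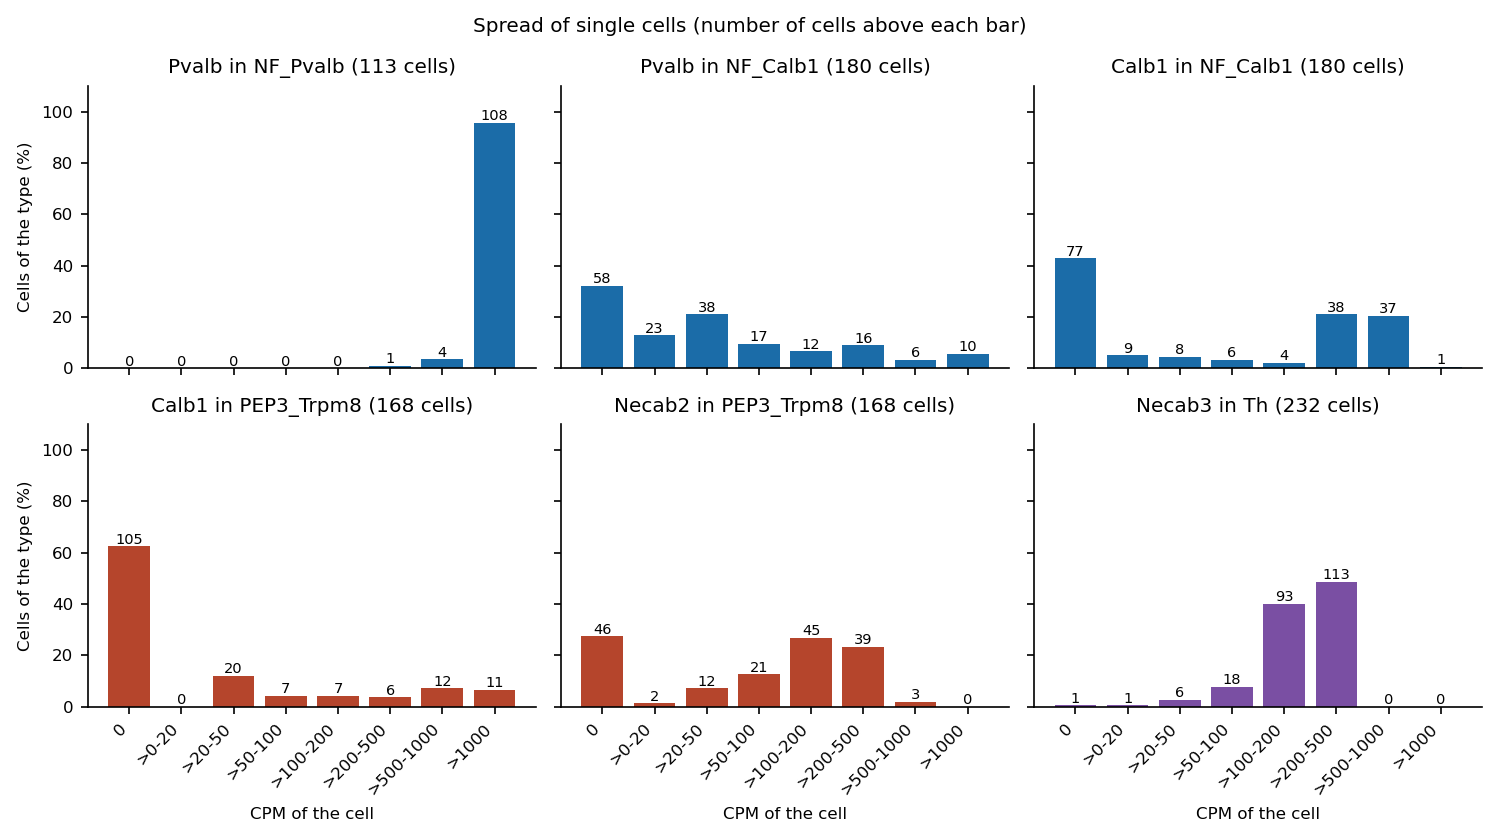
Share of the cells of a type (y axis, %) by the CPM of the single cell (x axis, 8 bins), with the number of cells above each bar, for 6 pairs of gene and type. Pvalb in NF_Pvalb and Necab3 in Th neurons form 1 block of cells, whereas Calb1 in NF_Calb1 has 77 cells at 0 and 75 cells between 200 and 1000 CPM.

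In NF_Calb1 most cells high in 1 of these genes were not high in the other. Over 100 CPM, 14 of 180 cells held both genes, 30 held Pvalb alone, 66 held Calb1 alone and 70 neither. As a share of each group, these 14 were 14 of 44 cells high in Pvalb and 14 of 80 cells high in Calb1. These cells are not replicates, so no test was made. With a minimum of 2 UMIs per gene, 133 of 351 NF cells held at least 2 of Pvalb, Calb1, Calb2 and Necab2, and 0 of 249 satellite glia did (up to 1.20% by the count alone). These cells were not thinned, and the median depth was 17729 UMIs in satellite glia and 66720 to 96530.5 in the NF types, so the glial count sets no limit on how many glia express these genes. By type these were 71 of 180 NF_Calb1 cells, 39 of 113 NF_Pvalb cells and 23 of 58 NF2_Ntrk2.Necab2 cells. The most frequent pair was Pvalb with Calb1 in NF_Calb1 (29 cells), Pvalb with Necab2 in NF_Pvalb (19 cells) and Calb1 with Necab2 in NF2_Ntrk2.Necab2 (20 cells). Of the satellite glia, 20 held at least 2 Pvalb UMIs, 9 of them in library 3 and 9 in library 4.

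Calb2 was sparse. Its highest type, NF_Calb1, had 0, 2.00, 11.4, 11.2 and 1.87 CPM in libraries 1 to 5, from 79 UMIs in 9 of 180 cells. The highest of these cells held 43 of the 79 UMIs, and without it the level fell from 5.29 to 3.11 CPM. In NF_Pvalb all 20 Calb2 UMIs came from 1 cell of library 3. Of NF_Calb1 cells, with a median depth of 77900 UMIs, 5.00% held a Calb2 UMI, and of satellite glia, with 17729, the share was 1.20%. After thinning these shares were 2.00% and 0.661%. No Calb2 UMI was found in NP_Mrgpra3, which allows up to 0.314 CPM, or in endothelial cells, which allows up to 3.19 CPM. Calb2 did not pass the filter on low counts and entered no test, and 0 of 13 steps in its order of types exceeded the spread between libraries.

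The 3 NECAB genes were spread over more types than Pvalb and Calb1, and each had its own set. Over 20 CPM, Necab1 was held by 10 types, Necab3 by 6 and Necab2 by 4, against 2 for Pvalb and 3 for Calb1. UMI counts of the 3′ end are per molecule and not per length, but capture can differ between genes, so the sums of genes that follow are sums of UMIs.

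Necab1 was highest in peptidergic neurons. PEP1_S100a11.Tagln2 had 101, 88.1, 89.4, 86.5 and 92.7 CPM in libraries 1 to 5, a mean of 91.6 ± 5.84 (SD, n = 5). PEP1_Dcn (80.7), PEP3_Trpm8 (78.1) and NF_Calb1 (76.2) followed, and the steps among these 4 types were smaller than the spread between libraries. The step from NF_Calb1 to PEP2_Htr3a.Sema5a (50.2) exceeded it, at 0.58 ± 0.18 on the log2 scale in 5 of 5 libraries. NP_Mrgpra3, PEP1_Slc7a3.Sstr2, Th, NP_Mrgprd and NF2_Ntrk2.Necab2 lay between 27.4 and 44.3 CPM. Below them the level dropped 2.43 ± 0.55 on the log2 scale (SD; 5 of 5 libraries) to NP_Nts with 4.41 CPM, satellite glia with 4.14, NF_Pvalb with 3.54 and endothelial cells with 0.993. NF_Pvalb, with 5.75, 4.94, 0.840, 3.11 and 3.05 CPM in libraries 1 to 5, did not stand above satellite glia. After thinning, 59.7% of PEP1_S100a11.Tagln2 cells held a Necab1 UMI, 3.88% of NF_Pvalb, 2.85% of NP_Nts and 4.36% of satellite glia.

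Necab2 was highest in types of 4 different classes. NF2_Ntrk2.Necab2 had 100, 162, 245, 285 and 230 CPM in libraries 1 to 5, and the lowest value came from the library with 3 cells of this type. PEP3_Trpm8 had 195, 107, 151, 108 and 123 CPM, so the ranges overlapped (log2 difference 0.53 ± 0.88, SD, n = 5, 4 of 5 libraries; p = 0.312 in the exact sign-flip test). Th neurons had 71.0 ± 18.5 CPM and NP_Nts 48.6 ± 19.8 (SD, n = 5). NF_Pvalb, NP_Mrgpra3 and NF_Calb1 lay at 13.8 to 14.8 CPM, and the other types at up to 7.70. Satellite glia had 0.979 ± 0.930 CPM from 4 UMIs, and endothelial cells 0 of 941065 UMIs, which allows up to 3.19 CPM and puts NF2_Ntrk2.Necab2 at least 64.2-fold above them. After thinning, 85.9% of NF2_Ntrk2.Necab2 cells and 57.0% of PEP3_Trpm8 cells held a Necab2 UMI, against 0.768% of satellite glia.

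Necab3 was highest in Th neurons, the C-fibre touch neurons that make tyrosine hydroxylase. They had 249, 194, 213, 214 and 182 CPM in libraries 1 to 5, above NF_Calb1 with 143, 163, 164, 161 and 158 CPM by 0.41 ± 0.23 on the log2 scale in 5 of 5 libraries. NF2_Ntrk2.Necab2 had 143 ± 14.6 CPM and did not differ from NF_Calb1 beyond the spread. PEP2_Htr3a.Sema5a (86.6), NP_Nts (50.5), NF_Pvalb (29.2) and NP_Mrgprd (13.7) followed, each lower than the type before it in 5 of 5 libraries. Necab3 had the most steps beyond the spread, 5 of 13, against 2 for Necab1, Necab2 and Pvalb and 1 for Calb1. The other 7 types lay between 2.80 and 12.01 CPM. In Th neurons 206 of 232 cells were over 100 CPM and 1 held no UMI, and in PEP2_Htr3a.Sema5a 72 of 206 cells were over 100 CPM and the top 10% of cells (20 cells) held 35.4% of the UMIs.

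Summed over the 3 genes, NECAB UMIs were highest in NF2_Ntrk2.Necab2 at 375 ± 66.1 CPM, Th at 315 ± 33.2, NF_Calb1 at 248 ± 18.9 and PEP3_Trpm8 at 227 ± 43.0 (SD, n = 5). NF_Pvalb had 47.5 ± 12.8 CPM, close to NP_Mrgprd (45.6 ± 5.58) and PEP1_Slc7a3.Sstr2 (45.9 ± 5.64). The composition differed by type. Necab1 gave 92.5% ± 2.85 of the sum in PEP1_S100a11.Tagln2, 86.8% ± 5.67 in PEP1_Dcn and 77.6% ± 5.79 in PEP1_Slc7a3.Sstr2. It also gave most of the sum in NP_Mrgprd (66.9% ± 3.55) and NP_Mrgpra3 (66.7% ± 6.52). Necab2 gave 59.6% ± 5.22 in PEP3_Trpm8 and 53.0% ± 11.7 in NF2_Ntrk2.Necab2. Necab3 gave 66.8% ± 3.68 in Th, 63.8% ± 2.17 in NF_Calb1, 61.6% ± 7.01 in PEP2_Htr3a.Sema5a and 61.5% ± 7.45 in NF_Pvalb. NF_Calb1 and PEP2_Htr3a.Sema5a, neurons of different classes, had similar compositions, with Necab1 at 30.6% ± 3.43 and 35.9% ± 5.02. NP_Nts was the type in which Necab2 (45.4% ± 10.8) and Necab3 (49.6% ± 6.73) were nearly equal and Necab1 was 5.01% ± 4.32.

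**Figure D3:**
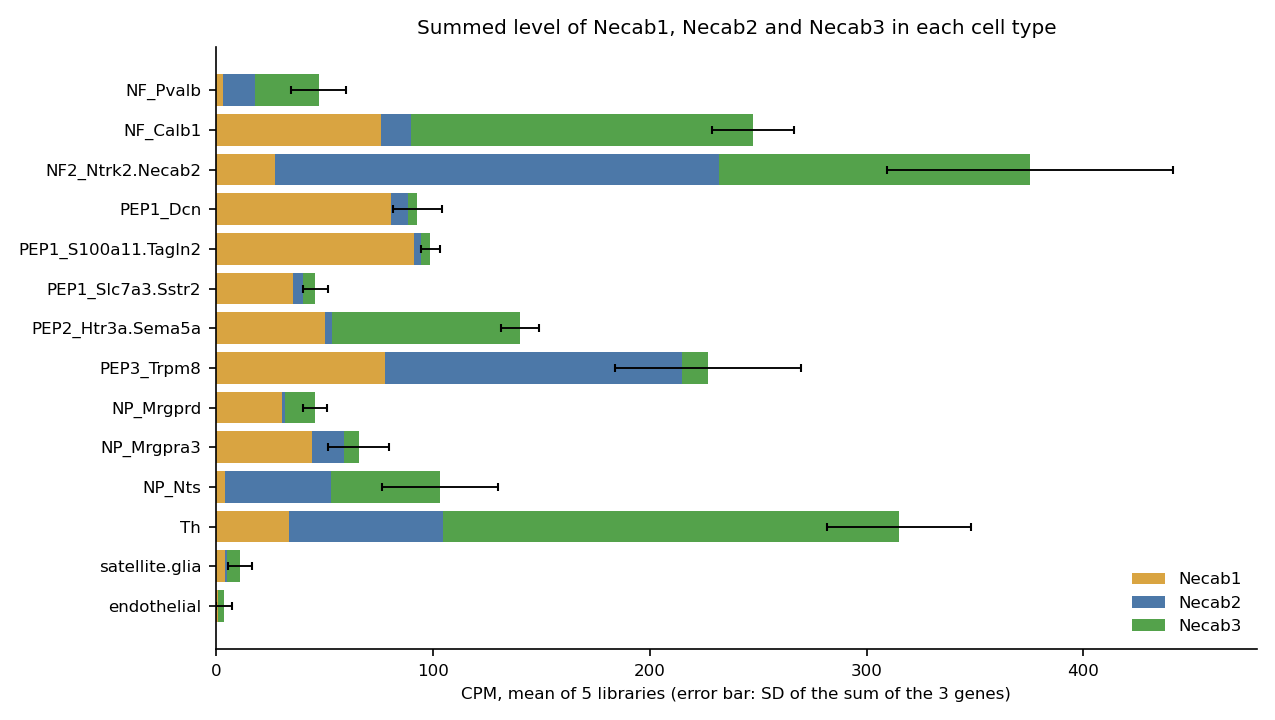
Mean level of Necab1, Necab2 and Necab3 (x axis, CPM, mean of 5 libraries, stacked from 0) in the 14 cell types (y axis), with the SD of the sum as error bars. Among neurons, Necab1 fills most of the bar in the 3 PEP1 types, NP_Mrgprd and NP_Mrgpra3, and Necab2 in PEP3_Trpm8 and NF2_Ntrk2.Necab2. Necab3 does so in Th, NF_Calb1, PEP2_Htr3a.Sema5a and NF_Pvalb.

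To ask by how much types differed across all genes, the 70 sums of type and library were fitted with edgeR's quasi-likelihood test over 11886 genes, 5 of the 6 members among them. A gene was called at a Benjamini-Hochberg adjusted p under 0.01 and at least 2-fold. The types were clustered by the authors from these same counts, so the p-values describe how far the types stand apart and are not independent evidence of it. Contrasts between classes average the types of a class on the log scale, so that their sign can differ from that of the mean CPM.

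Between the 3 NF types and the other 9 neuron types, 5 of 5 members tested were called, against 24.9% of all genes. Pvalb, Calb1 and Necab2 are part of the names of these NF types. The counts of members called here and between the NF types were thus partly set by the annotation. Calb1 was higher in NF neurons by 4.43 on the log2 scale (standard error 0.29, adjusted p = 6.92e-23), Pvalb by 3.94 (0.55, adjusted p = 1.77e-09), Necab3 by 2.26 (0.096, adjusted p = 2.27e-33) and Necab2 by 1.52 (0.16, adjusted p = 1.03e-13). Necab1 was lower, with a log2 fold change of -1.07 (0.11, adjusted p = 9.27e-14), and lost the call without library 3 (-0.98) and in DESeq2 (-0.95). Each direction was seen in 5 of 5 libraries. The class mean hides its types, since Pvalb had 2773 CPM in NF_Pvalb and 2.43 in NF2_Ntrk2.Necab2. Calb1 had 208 CPM in NF_Calb1, 46.4 in NF2_Ntrk2.Necab2 and 12.8 in NF_Pvalb. Outside NF, it had 142 CPM in PEP3_Trpm8 and at most 1.64 in the other neuron types. Its class means were 89.0 CPM in NF and 16.7 in the others. Necab2 had 205 CPM in NF2_Ntrk2.Necab2. In NF_Pvalb (14.8) and NF_Calb1 (13.8) it lay below PEP3_Trpm8 (137), Th (71.0) and NP_Nts (48.6), and near or above the other neuron types. Necab1 had 3.54 CPM in NF_Pvalb, 27.4 in NF2_Ntrk2.Necab2 and 76.2 in NF_Calb1. The other 9 neuron types ran from 4.41 to 91.6 CPM of Necab1, so only NF_Pvalb lay below all of them.

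The 3 NF types differed from each other in most members. Between NF_Pvalb and NF_Calb1, 4 of 5 members were called, against 11.6% of all genes. Pvalb was higher in NF_Pvalb by 4.30 (standard error 0.35, adjusted p = 9.55e-17), whereas Calb1 (-3.85), Necab1 (-4.53) and Necab3 (-2.44) were lower. Necab1 had 3.54 ± 1.91 CPM in NF_Pvalb and 76.2 ± 13.5 in NF_Calb1 (SD, n = 5; adjusted p = 3.82e-26), a 23.1-fold difference. Necab2 differed by 0.15 (standard error 0.34, adjusted p = 0.794).

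Against NF2_Ntrk2.Necab2, NF_Pvalb was called for 4 of 5 members (18.4% of all genes) and NF_Calb1 also for 4 of 5 (12.5% of all genes). Both comparisons share the NF2_Ntrk2.Necab2 sums. Pvalb was higher by 9.97 in NF_Pvalb and by 5.68 in NF_Calb1 (adjusted p = 2.12e-25 and 7.99e-13). Necab2 was lower, with log2 fold changes of -3.91 in NF_Pvalb and -4.06 in NF_Calb1 (standard errors 0.29 and 0.27, adjusted p = 8.9e-19 and 1.44e-20). Necab1 was lower in NF_Pvalb (-3.01) and higher in NF_Calb1 (1.52), and Necab3 was lower in NF_Pvalb (-2.38), whereas its difference of 0.06 in NF_Calb1 was not called (standard error 0.16, adjusted p = 0.839). Calb1 was 2.69 higher in NF_Calb1 (0.40, adjusted p = 7.02e-08), and in NF_Pvalb its difference of -1.16 was not called (0.50, adjusted p = 0.0608). Library 1, with 3 cells of NF2_Ntrk2.Necab2, was the library that went against the direction for Calb1 in NF_Calb1.

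**Figure D4:**
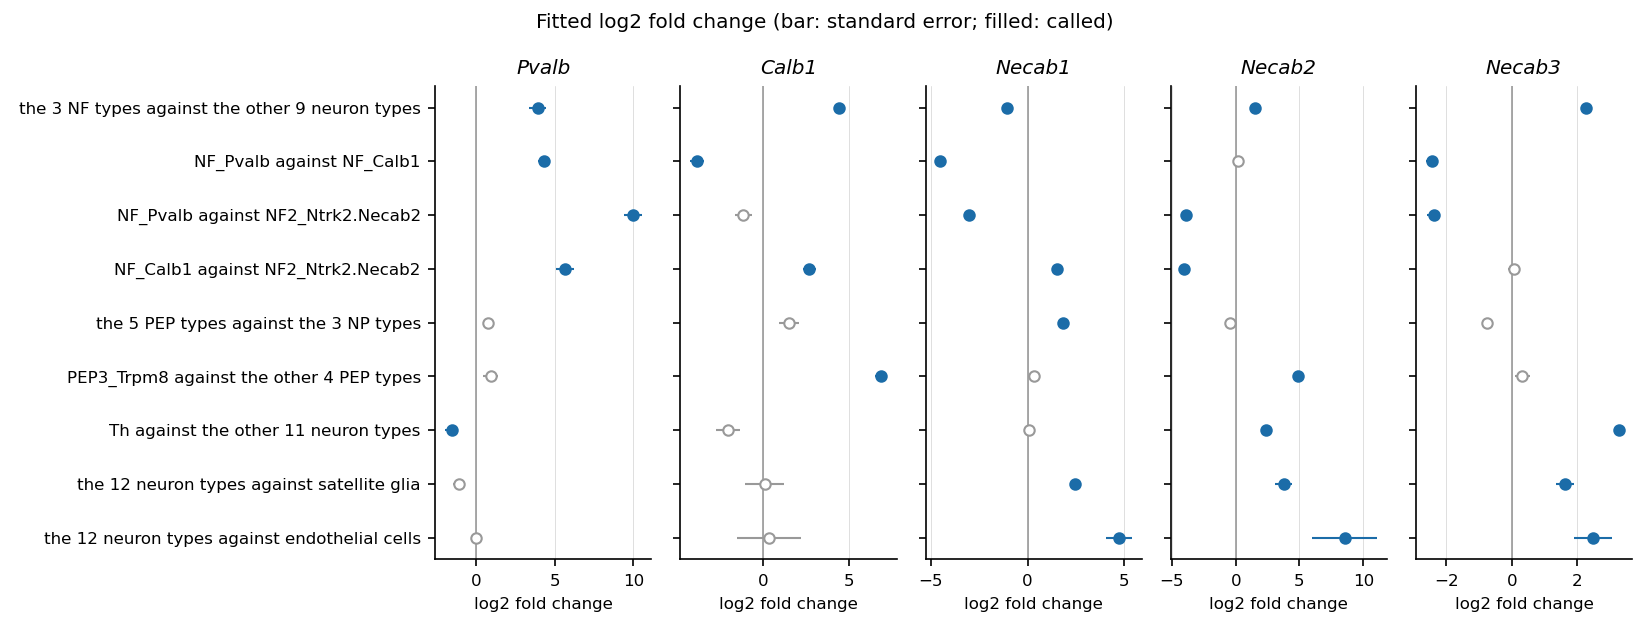
Fitted log2 fold change (x axis, own range for each gene) of the 5 members tested in 9 contrasts between types (y axis), with standard errors as bars; filled points were called at an adjusted p under 0.01 and at least 2-fold. Calb1 and Necab2 are both called higher in PEP3_Trpm8 against the other 4 PEP types, at 6.85 and 4.92.

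Between the 5 PEP types and the 3 NP types, 1 of 5 members was called, against 19.2% of all genes. Necab1 was higher in PEP types by 1.84 (standard error 0.093, adjusted p = 1.5e-28), at 67.3 ± 4.03 against 26.5 ± 6.28 CPM (SD, n = 5). The NP types differed, with 4.41 CPM in NP_Nts, 30.6 in NP_Mrgprd and 44.3 in NP_Mrgpra3. The last lay above PEP1_Slc7a3.Sstr2 with 35.8 CPM, so the classes overlapped. Necab3 missed the 2-fold minimum at -0.76 (adjusted p = 1.51e-06), and Calb1, at 1.51, missed the adjusted p at 0.0183. Within the PEP class, PEP3_Trpm8 stood apart from the other 4 types in 2 of 5 members, against 18.2% of all genes. Calb1 had 142 ± 107 CPM there and 1.15 ± 0.870 in the others (log2 fold change 6.85, standard error 0.36, adjusted p = 5.33e-27), and Necab2 had 137 ± 37.2 and 4.66 ± 1.85 (4.92, 0.22, adjusted p = 5.08e-30). Necab1 (0.32, adjusted p = 0.0329) and Pvalb (0.94, adjusted p = 0.0814) were not called. For Necab3 the fitted difference was 0.33 (adjusted p = 0.271) although the mean was 12.01 CPM in PEP3_Trpm8 and 25.3 in the others, of which PEP2_Htr3a.Sema5a alone had 86.6.

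In Th neurons against the other 11 neuron types 3 of 5 members were called, against 17.7% of all genes. Necab3 was higher by 3.27 (standard error 0.10, adjusted p = 8.94e-41) and Necab2 by 2.40 (0.16, adjusted p = 5.27e-21). Pvalb was lower, at -1.53 (0.42, adjusted p = 0.00145) and 4.70 ± 3.08 CPM, and lost the call without library 2 (adjusted p = 0.0122). On the other side NF_Pvalb had 2773 CPM of Pvalb and NF_Calb1 148. The 10 remaining neuron types, Th among them, lay at 2.43 to 12.2 CPM, below the 17.5 of satellite glia. Low Pvalb was therefore not particular to Th neurons. Calb1, at -2.06, was not called (adjusted p = 0.0112), but was with library as a replicate block in the model (-2.01, adjusted p = 0.00875), in sums of at least 10 cells (adjusted p = 0.00517) and in DESeq2 (adjusted p = 0.00252).

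The contrasts of all neurons with the other cells called about as large a share of the members as of all genes. Against satellite glia, 3 of 5 members were called (50.7% of all genes), namely Necab2 at 3.75 (standard error 0.67, adjusted p = 1.23e-06), Necab1 at 2.45 (0.25, adjusted p = 5.9e-14) and Necab3 at 1.62 (0.27, adjusted p = 1.91e-07). Not each neuron type stood above satellite glia, where Necab1 had 4.14 and Necab3 5.95 CPM, against 3.54 CPM of Necab1 in NF_Pvalb and 4.34 to 5.595 CPM of Necab3 in the 3 PEP1 types. Against endothelial cells the same 3 of 5 were called (50.3% of all genes), with Necab1 at 4.71 (0.68, adjusted p = 6.85e-09) and Necab3 at 2.48 (0.58, adjusted p = 0.000148). Necab2 had no endothelial UMI, and the mean of the 12 neuron types was at least 13.7-fold over the limit of that count; its call was lost without library 2 or library 3. Both contrasts share the neuron sums. Pvalb had a mean of 248 CPM over the 12 neuron types and 17.5 in satellite glia, but a fitted log2 difference of -1.07 (adjusted p = 0.0119), and 10 of the 12 types lay below satellite glia. With library as a replicate block this was called lower, at -1.27 (adjusted p = 0.00129), as it was without library 1 (-1.24) or library 5 (-1.64). Calb1 was not called against either type (adjusted p = 0.976 and 0.917).

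The other calcium genes were taken from 2 longer lists, 1 of EF-hand sensors and buffers and 1 of calcium pumps, exchangers and store channels. Of 42 EF-hand genes, 38 were tested. In NF neurons against the other neurons 5 were higher, 9 lower and 24 not called, with a median log2 fold change of -0.17 against -0.04 over all genes. The called genes were 36.8% of those tested, against 24.9% of all genes. The largest changes were those of Vsnl1, a neuronal calcium sensor (5.56, 277 ± 39.4 CPM in NF against 12.2 ± 4.25), Tesc, which encodes tescalcin (3.33), Hpca, which encodes the sensor hippocalcin (-2.94, 5.30 ± 1.77 against 90.6 ± 10.6), and Cabp1 (2.66; adjusted p = 2.39e-41). Outside NF, Hpca had 542 CPM in PEP3_Trpm8, 112 in Th and 32.8 in the other 4 PEP types. Of 31 genes of the second list, 27 were tested, and 10 were higher in NF neurons, 3 lower and 14 not called. The share called was 48.1% and the median 0.37. Atp2b2, a calcium pump of the plasma membrane, was higher by 6.03 (189 ± 28.6 against 13.6 ± 2.07 CPM, SD, n = 5; adjusted p = 1.34e-53), and Atp2b4, another pump of that family, was lower, at -3.66 (4.52 ± 2.95 against 90.3 ± 10.2 CPM). In PEP types Atp2b4 had 156 CPM, in NP types 10.4 and in Th 0.223, so low Atp2b4 was not particular to NF neurons. The release channels Itpr3 and Ryr2 were higher in NF neurons by 4.48 and 3.70.

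Between NF_Pvalb and NF_Calb1, 4 EF-hand genes were higher, 5 lower and 29 not called, with a median of 0.05 against -0.03 over all genes. The called genes were 23.7% of those tested, against 11.6% of all genes. Kcnip2, a subunit of potassium channels, was higher in NF_Pvalb (140 ± 10.6 against 6.54 ± 6.77 CPM, log2 fold change 4.79, adjusted p = 3.23e-21), and Kcnip3 was lower (27.2 ± 8.65 against 200 ± 40.7 CPM, -2.95). Of pumps, exchangers and store channels 1 was higher, 5 lower and 21 not called (22.2% called), with a median of -0.25. Chp2 and Ryr3 had no UMI in NF_Pvalb and low levels in NF_Calb1, at 1.48 ± 1.62 and 3.78 ± 1.42 CPM (SD, n = 5). Atp2b4 was higher by 2.40, in 4 of 5 libraries and with a wide spread (10.3 ± 10.0 against 2.91 ± 3.66 CPM). Itpr3 (-3.00) and Slc24a3 (-2.13), a sodium-calcium-potassium exchanger, were lower.

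Further contrasts concern the types in which Calb1, Necab2 and Necab3 were high. In PEP3_Trpm8 against the other PEP types, 3 EF-hand genes were higher, 8 lower and 27 not called (median -0.20, all genes 0). Of pump, exchanger and store genes 4 were higher, 4 lower and 19 not called (median -0.29). For PEP3_Trpm8 28.9% and 29.6% of these lists were called, against 18.2% of all genes. Hpca had 542 ± 56.3 CPM there and 32.8 ± 9.49 in the others (log2 fold change 4.17, adjusted p = 1.04e-38), while Kcnip3 was lower (-4.53) and Scgn had no UMI in PEP3_Trpm8 and 8.48 ± 1.75 CPM in the others. In Th neurons 8 EF-hand genes were higher, 5 lower and 25 not called (median -0.05, all genes 0.01). The called genes were 34.2% of those tested, against 17.7% of all genes. Kcnip2 was at 4.03 (160 against 35.1 CPM), Hpca at 2.91 (112 against 65.4), Rcn1 at 2.69 (30.0 against 13.5) and Tesc at -3.31 (5.01 against 132). PEP3_Trpm8, among the other neurons, had 542 CPM of Hpca, above Th. Of the second list 4 were higher, 5 lower and 18 not called (33.3% called, median -0.11). Atp2b2 was at 3.44, although its means were close, at 70.2 ± 9.76 CPM in Th and 56.3 ± 7.69 in the others. The NF types, at 189 CPM, lay above Th. Slc8a1, a sodium-calcium exchanger, was at 2.81 (21.0 against 7.73 CPM) and Ryr2 at -3.01 (0.722 against 20.7). Atp2b4 was at -6.29 (0.223 against 75.1 CPM), and NF and NP types were low too, at 4.52 and 10.4.

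The partners of NECAB proteins were looked at in the same types. The adenosine receptor gene Adora2a was highest in NF2_Ntrk2.Necab2 at 9.57 ± 1.74 CPM and next in Th at 6.07 ± 1.74 (SD, n = 5), 2 of the types with high Necab2. In PEP3_Trpm8, which also had high Necab2, it had 0.328 ± 0.470 CPM from 2 UMIs, and in NP_Nts, the remaining type with Necab2 over 20 CPM, no UMI. Adora2a was higher in Th against the other neurons (2.90, standard error 0.33, adjusted p = 1.56e-11) and lower in NF_Pvalb and NF_Calb1 against NF2_Ntrk2.Necab2 (-5.05 and -3.79). Grm5, which encodes metabotropic glutamate receptor 5, did not pass the filter and was highest in PEP2_Htr3a.Sema5a at 6.37 ± 1.47 CPM, where Necab2 had 3.38 ± 3.11. Apba2 was found in all neuron types, from 34.0 CPM in NP_Nts to 188 in NF_Pvalb, and at 3.12 CPM in satellite glia. In NF_Pvalb, Apba2 was high where Necab3 had 29.2 CPM, and in Th, with the highest Necab3, it had 64.7 ± 12.9. Apba2 was 1.36 higher in NF_Pvalb than in NF2_Ntrk2.Necab2 (adjusted p = 1.48e-07) and did not pass 2-fold between the NF and other neurons (0.79).

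The members did not share 1 pattern. Across the 14 type means of log2(CPM + 1), the highest correlation between members was that of Necab2 with Necab3 (Pearson r = 0.59, Spearman rho = 0.61), followed by Calb1 with Necab2 (0.48 and 0.20) and Pvalb with Calb1 (0.44 and 0.57). The lowest was Pvalb with Necab1 (-0.27 and -0.09). The 14 types share libraries, so these are descriptions with no test. The genes most like each member by Pearson r over the same 14 types were Vstm2b (0.97), C1ql3 and Gm16551 for Pvalb, Olfm3 (0.96), Gabra4 and Rgs6 for Calb1, Slc17a6 (0.92), Pvt1 and March4 for Necab1, Adprhl1 (0.88), Tmem72 and Krt25 for Necab2, and Ift20 (0.95), Rnf111 and Tox3 for Necab3. Slc17a6, which encodes a vesicular glutamate transporter, was highest in PEP3_Trpm8 at 343 ± 35.4 CPM (SD, n = 5), where Necab1 had 78.1. Ift20 and Tox3 were highest in NP_Nts and Th, and Vstm2b, C1ql3 and Gm16551 in NF_Pvalb.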

How the data were processed

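The authors deposited raw UMI counts per gene and cell, not normalized, made with Cell Ranger on mm10. With them came 1 cell type per cell from clustering in Seurat. Both are as the submitters' processing notes and the methods state. With all 37 mitochondrial rows counted, 188 cells exceeded the stated limit of 10% mitochondrial UMIs and were kept. The paper states that it removed cells over this limit, and does not list the mitochondrial rows it counted. The annotation spells 1 type NF_Ca1b1, read here as NF_Calb1. Doublets were not called, and 4 rows that name no mouse gene (143 UMIs, 6.37e-05% of all) were left out. The members and gene lists were chosen with earlier results of these data known.

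UMIs were summed per type and library (70 sums) and tested with edgeR 4.0.16 in R 4.3.3 (filterByExpr, TMM, quasi-likelihood test, adjusted over 11886 genes). In simulated data for NF_Pvalb against NF_Calb1 (10282 genes), 74 of 100 genes changed 2-fold and 97 of 100 changed 4-fold were recovered, with 1 false call. Recovery was scored at an adjusted p under 0.01 without the 2-fold minimum. The simulation gave all genes a common dispersion and all types the same baseline, and changed no gene with a very low mean count. These rates are therefore not those of the calls above. Thinned shares are the expected share at 10000 UMIs per cell, and no cell was shallower. Limits for a count of 0 rest on 3 UMIs over the type. Libraries pair the types, since each is 1 mouse; deviations of sums of the same library correlated at a median of 0.09, those of other libraries at -0.03. The library block, DESeq2 1.42.0, other filters, scalings and thresholds, and each library left out were alternatives. For each member the 3 genes with the highest r are named, from the longer lists up to 4 called genes with the largest change, and all 3 NECAB partners. Python 3.11.15 was used for the rest.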

Additional observations from a re-analysis of the deposited data

Results flagged for a closer look

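In groups of 5 libraries, a highest or lowest value was marked where its gap to the next value, relative to the range, exceeded Dixon's 95% critical value. Of 81 pairs of gene and type with any spread, 13 were marked, where chance marks about 1 in 20 groups. That rate does not hold for sparse counts, since a group with 4 libraries at 0 and 1 above it is always marked, as were Calb2 in NF_Pvalb, NP_Nts and Th and Necab1 in endothelial cells. Library 1 gave the high values of Calb1 (165 CPM) and Calb2 (3.58 CPM) in NF2_Ntrk2.Necab2, where it holds 3 cells, and of Necab1 in PEP3_Trpm8 (102 CPM) and NP_Nts (8.77 CPM). Library 5 gave the high values of Pvalb in PEP3_Trpm8 (31.5 CPM) and NP_Mrgpra3 (7.30 CPM), of Calb1 in PEP1_Slc7a3.Sstr2 (4.76 CPM) and of Calb2 in NP_Nts (0.555 CPM) and Th (0.347 CPM). Library 3 gave the high values of Calb2 in NF_Pvalb (16.8 CPM, from 1 cell) and PEP3_Trpm8 (3.06 CPM), and the low value of Necab2 in PEP1_Slc7a3.Sstr2 (0.745 CPM). Library 4 gave the high value of Necab1 in endothelial cells (4.96 CPM, from 1 UMI). The cause was not tested.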

How the results depend on the processing

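With library as a replicate block the calls of members changed in Th for Calb1 and against satellite glia for Pvalb, given above, and no other. The number of members called moved by over 1.5 times only for PEP against NP types, from 1 to 4 at an adjusted p under 0.05 with no minimum fold, to 2 in sums of at least 10 cells and to 2 in DESeq2, where Calb1 was called too. The level of the highest type of each member moved by less than 1 SD under each alternative for levels, and the counts of steps beyond the spread stayed within 1.5 times with pseudocounts of 0.1 and 10 CPM, the only alternatives run for them. Shares depend on depth: at 5000 UMIs instead of 10000 they were 36.9% for Necab1 in PEP1_S100a11.Tagln2, 65.6% for Necab2 in NF2_Ntrk2.Necab2 and 62.4% for Necab3 in Th, and without thinning 95.6, 100 and 99.6%, with 57.2% for Calb1 in NF_Calb1 instead of 47.0%. With a minimum of 1 UMI, 226 NF cells held at least 2 members. Signs turned only in log2 differences that were not called. With 1 library left out, Necab2 between NF_Pvalb and NF_Calb1 ranged from -0.019 (without library 2) to 0.32, Necab3 between NF_Calb1 and NF2_Ntrk2.Necab2 from -0.015 (without library 3) to 0.070, Calb1 against satellite glia from -0.30 (without library 5) to 0.40, Pvalb against endothelial cells from -0.17 (without library 2) to 0.16 and Calb1 against endothelial cells from -0.17 (without library 2) to 0.70. Necab3 between NF_Calb1 and NF2_Ntrk2.Necab2 was -0.14 in sums of at least 10 cells, Calb1 against satellite glia -0.13 with the replicate block, and Pvalb against endothelial cells -0.13 with the block, -0.11 without cells over 10% mitochondrial and -0.21 in DESeq2. The cause was not tested. At an adjusted p under 0.05 with no minimum fold, 3340 to 8423 genes were called in the 7 contrasts between neurons instead of 1383 to 2957, and the share called higher in PEP types moved from 71.0 to 52.6%. Library totals in place of TMM moved the median of all genes by 0.11 to 0.30 in 3 contrasts, most against satellite glia, and DESeq2 by -0.30 to 0.14 in 3 contrasts. The genes most like a member depend on the measure: by Spearman rho none of the 3 remained for Pvalb, Calb1, Necab1 and Necab3 (0) and 1 for Necab2, and without 1 library 1 to 3 remained. Leaving out the 1 cell with most UMIs of a member was chosen after seeing the data. Precision was limited by the 3 to 27 cells of NF2_Ntrk2.Necab2 and 3 to 16 endothelial cells per library and by the few UMIs of Calb2.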

Other observations

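Peptidergic and non-peptidergic neurons also differed in other calcium genes, in a contrast that called 19.2% of all genes. Of the 38 EF-hand genes 9 were higher in PEP types, 2 lower and 27 not called (median log2 fold change -0.04, all genes 0.03), and of the 27 pumps, exchangers and store genes 9 were higher, 2 lower and 16 not called (median 0.40). Rcn1, which encodes a reticulocalbin of the endoplasmic reticulum, had 27.9 ± 4.35 CPM in PEP types and 1.11 ± 0.555 in NP types (log2 fold change 4.57, adjusted p = 2.02e-34 in edgeR). Kcnip2 was lower, with 4.23 ± 2.74 against 71.8 ± 8.40 CPM (-3.57), and Atp2b4 was higher, with 156 ± 16.8 against 10.4 ± 2.68 CPM (3.91).

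Against NF2_Ntrk2.Necab2, NF_Pvalb had 6 EF-hand genes higher, 7 lower and 25 not called, and NF_Calb1 had 4, 4 and 30, in contrasts that called 18.4% and 12.5% of all genes, while of the second list NF_Pvalb had 6 higher and 5 lower and NF_Calb1 7 and 2. Slc24a2, a sodium-calcium-potassium exchanger, had 545 ± 136 CPM in NF_Pvalb, 460 ± 62.8 in NF_Calb1 and 2.54 ± 1.93 in NF2_Ntrk2.Necab2 (SD, n = 5). Efhd2 ran the other way, with 2.95 ± 3.02, 5.68 ± 1.96 and 83.1 ± 12.4 CPM. Against satellite glia, 17 EF-hand genes were higher in neurons and 9 lower, and 11 and 5 of the second list, in a contrast that called 50.7% of all genes, with Rcn3 at 1.27 ± 0.191 CPM in neurons and 88.1 ± 12.3 in satellite glia. Against endothelial cells the counts were 15 higher and 7 lower, and 7 and 5 of the second list, against 50.3% of all genes called.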
